A study of Mus musculus with 6 samples.

Results

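The transcripts of 10 genes of the circadian clock were followed in mouse macrophages after 24 h with a Toll-like receptor ligand. The genes were Clock, Arntl (now also called Bmal1), Per1, Per2, Per3, Cry1, Cry2, Nr1d1, Nr1d2 and Dbp. They were chosen by name from the platform annotation, each was read by 1 probe that carried a single gene symbol, and all 10 were among the 19935 genes tested. The cells were peritoneal macrophages, phagocytes of the abdominal cavity, from C57BL/6 mice, kept in DMEM with 10% serum and profiled as populations on an Affymetrix array. The first group received 2 ug/mL poly I:C, an artificial RNA duplex that activates TLR3, for 24 h. The second received PAM, a lipopeptide that activates TLR2, at 1 ug/mL for 24 h, and its samples are described under differing compound names (PAMCSK3 and PAMCSK4). The third was left untreated as control, and its time in culture is not stated. Each group held 2 arrays, 6 in all. Whether a group's arrays stand for different mice or dishes is not stated, and the p-values below reflect array-to-array spread that may be technical.

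The mammalian clock is a feedback loop of transcription. CLOCK and the ARNTL protein bind together to E-box elements and switch on the Per and Cry genes, whose products return to repress them. The same pair drives Nr1d1 and Nr1d2, which encode the REV-ERB repressors of Arntl, and Dbp, which encodes an activator that binds D-box elements. Macrophages carry this loop, and it is known to pace their cytokine output. A single harvest time gives no phase or amplitude, and because control culture time is unstated, a shift in clock phase between cultures and a change caused by a ligand cannot be told apart.

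All values below are log2 values relative to the gene's own median over the 6 arrays, since the deposited table was centred gene by gene. They hold no absolute level, so one gene cannot be ranked against another by abundance. Differences between groups are log2 differences ± SE, with 2 arrays in each group, and each adjusted p comes from a limma fit to all genes. In cell populations, fewer cells with a transcript and less transcript per cell cannot be told apart. The arrays of a group differed by a median of 0.0724 (poly I:C), 0.069 (PAM) and 0.091 (control) over all genes. From the numerical steps of the table it was inferred whether a probe's uncentred value had been 8 or more on every array. This was so for 27.6% of all probes, 93% of ribosomal protein probes and 1.35% of olfactory receptor probes. A lower probe can meet the rule by accident, so the class of a single gene is not certain. Among the clock genes it was so for Clock and Nr1d2, and the other 8 lay lower on at least 1 array.

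The labelled cell type was compared with its markers in the same way. Of 9 macrophage markers 8 reached that level, including Adgre1 (F4/80), Csf1r, Itgam and Lyz2, against 4 of 29 markers of B cells, T and NK cells, neutrophils, mast cells and mesothelial or fibroblast cells. Of those 4, 3 were among the 6 mesothelial and fibroblast markers (Col1a1, Col1a2 and Dcn). The remaining 1 was Cd8a, among the 7 T and NK cell markers. The macrophage markers themselves moved both ways: Adgre1 fell by 0.97 with poly I:C and rose by 1.38 with PAM, and Itgam fell by 1.49 with poly I:C and 0.49 with PAM. Fcgr1 rose by 2.65 with poly I:C and fell by 1.72 with PAM, and Cd14 fell by 1.28 with poly I:C and rose by 2.39 with PAM. Gata6, the 1 macrophage marker that did not reach the level, fell by 0.67 with poly I:C and by 0.87 with PAM. Of the 9, 2 rose and 4 fell with poly I:C (12.1% and 18.2% of all genes). With PAM 3 of the 9 rose and 4 fell (11% and 14%). Of the 29 other markers, 2 rose and 2 fell with poly I:C, beside 12.1% and 18.2% of all genes. With PAM 4 rose and 1 fell, beside 11% and 14%. The 4 were S100a8 (2.04 ± 0.10), Dcn (0.95 ± 0.15), Cd79b (0.62 ± 0.08) and Ms4a1 (0.51 ± 0.13, adjusted p = 0.0562 without control replicate 2 and 0.0753 without PAM replicate 2, limma). S100a8 was the 1 of 6 neutrophil markers that passed with PAM, and the other 5 lay between -0.13 (S100a9) and 0.05 (Ly6g). The mean centred value of all 6 was 0.31 and 0.30 on the PAM arrays, against 0.05 and -0.06 on the control arrays. Of 5 B cell markers, Cd79b and Ms4a1 also passed with poly I:C (0.36 and 0.44), where both calls ended without poly I:C replicate 2 (adjusted p = 0.089 and 0.161, limma), and the other 3 passed with neither ligand. The mean of the 5 was 0.00 and 0.06 with poly I:C, 0.02 and 0.21 with PAM and -0.08 and -0.24 in control cells. Of the 6 mesothelial and fibroblast markers, Upk3b fell with poly I:C and PAM (-0.40 and -0.45) and Col1a1 fell with poly I:C (-0.36). The call of Upk3b with poly I:C ended without control replicate 1 (-0.21), poly I:C replicate 1 (-0.37) or poly I:C replicate 2 (-0.42). Its call with PAM ended without PAM replicate 1 (-0.41) or PAM replicate 2 (-0.48). That of Col1a1 with poly I:C ended without poly I:C replicate 1 (-0.34). With PAM the markers of this list other than Dcn and Upk3b did not pass and lay between -0.18 (Msln) and 0.29 (Col1a2). The part of such cells in the clock gene results was not tested.

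With poly I:C, 3 clock genes rose and 2 fell at an adjusted p under 0.05 (limma). Cry1, Cry2 and Nr1d2 were the higher ones, Clock and Arntl the lower ones, and none of the 5 changed as much as 2-fold. Over all genes, 12.1% were higher and 18.2% lower in the same comparison, 30.4% in all. With PAM, 2 clock genes rose, Per2 and Cry1, and 3 fell, Arntl, Nr1d2 and Dbp. There the background was 11% higher and 14% lower, 25% in all, and Nr1d2 changed most, 2.11-fold. Between the ligands 6 clock genes passed, with Nr1d2 and Dbp higher and Clock, Arntl, Per2 and Cry1 lower in poly I:C cells, beside 12.9% and 15.8% of all genes (28.7% in either direction). The arrays of the groups compared did not overlap for 7 clock genes with poly I:C (59.1% of all genes), 7 with PAM (55.7%) and 9 between poly I:C and PAM (61.2%). Both comparisons with control share the same 2 control arrays. Across the 10 genes the median size of the log2 difference, sign ignored, was 0.24 with poly I:C and 0.27 with PAM, beside 0.12 and 0.11 over all genes. In all, 7 clock genes passed with at least 1 ligand, 3 of them (Arntl, Cry1 and Nr1d2) with both, while Per1, Per3 and Nr1d1 passed with neither. The shares of all genes that passed with either ligand or with both were not counted, so these numbers have no background beside them. Against a minimum change of 1.2-fold (limma's treat) the calls of Cry1, Cry2 and Nr1d2 with poly I:C, of Arntl and Dbp with PAM, and of Arntl, Per2, Cry1 and Dbp between the ligands ended.

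**Figure D1:**
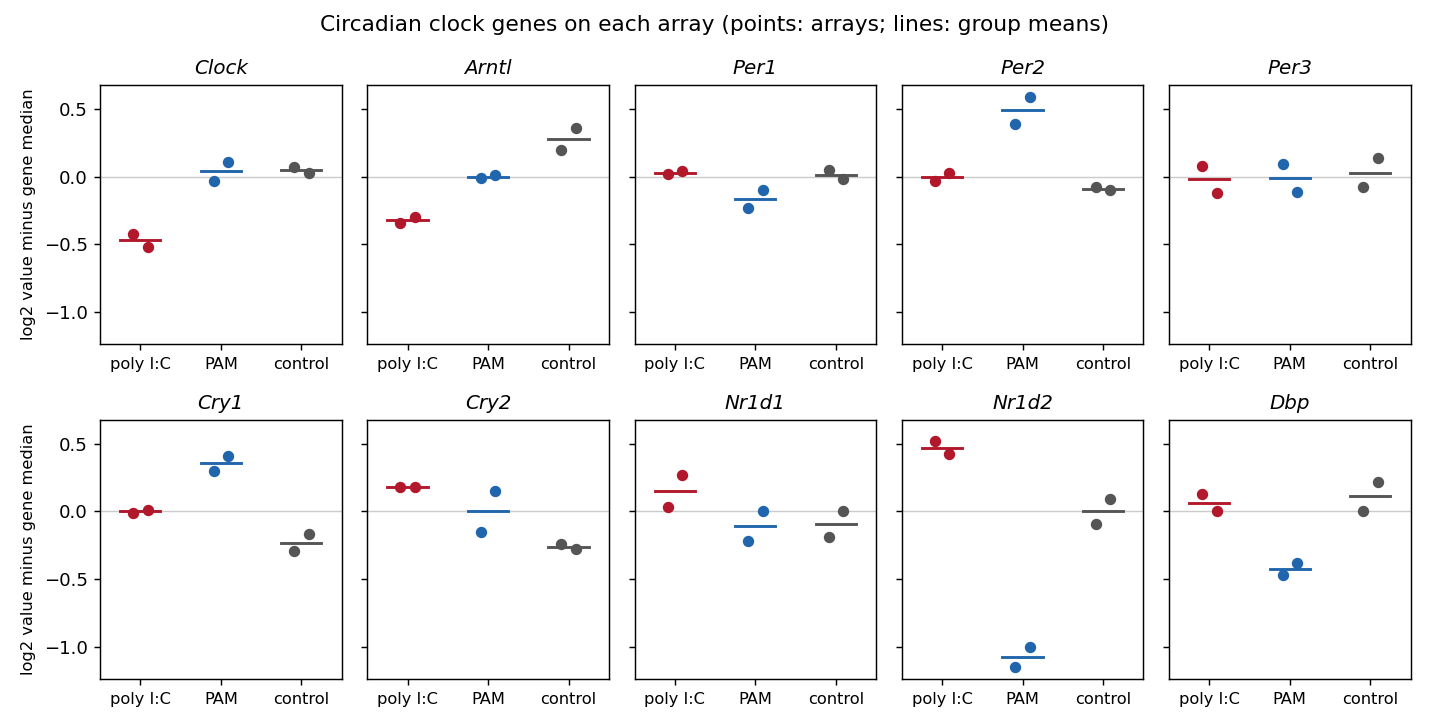
Log2 value of each clock gene, relative to its median over the 6 arrays, on the 2 poly I:C, 2 PAM and 2 control arrays (points), with group means as lines. Nr1d2 shows the widest separation, at 0.52 and 0.42 with poly I:C, -1.15 and -1.00 with PAM and -0.09 and 0.09 in control cells.

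Promoter sequences are shown so that the clock elements near the gene starts can be read beside the values. They are printed for Nr1d2, Arntl and Cry1, the genes that passed with both ligands, and for Per3. Per3 is 1 of the 3 genes that passed with neither, and the windows of Per1 and Nr1d1 are not printed. All sequences are taken from RefSeq on build GRCm38.p6, 250 bases before to 50 bases after an annotated start, given 5′ to 3′ on the gene's strand. Such windows were found for 9 of the 10 genes (13 windows, since some genes have several starts). Capitals mark matches, on either strand, to the E-box CACGTG, the E′-box CACGTT, the D-box TTATGTAA or TTACGTAA, and AGGTCA, the half-site at the core of the elements bound by REV-ERB and ROR proteins. None of the marked matches overlap. The Nr1d2 window is chr14:18239057-18239356 (minus strand), the Arntl window chr7:113207261-113207560 (plus strand, the second of its 2 starts), the Cry1 window chr10:85185005-85185304 (minus strand) and the Per3 window chr4:151044616-151044915 (minus strand).
Nr1d2: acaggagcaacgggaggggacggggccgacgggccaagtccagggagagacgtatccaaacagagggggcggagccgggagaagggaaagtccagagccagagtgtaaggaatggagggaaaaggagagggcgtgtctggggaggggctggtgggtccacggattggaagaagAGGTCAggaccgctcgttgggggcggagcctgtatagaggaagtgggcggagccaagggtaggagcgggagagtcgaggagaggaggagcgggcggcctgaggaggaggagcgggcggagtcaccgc
Arntl: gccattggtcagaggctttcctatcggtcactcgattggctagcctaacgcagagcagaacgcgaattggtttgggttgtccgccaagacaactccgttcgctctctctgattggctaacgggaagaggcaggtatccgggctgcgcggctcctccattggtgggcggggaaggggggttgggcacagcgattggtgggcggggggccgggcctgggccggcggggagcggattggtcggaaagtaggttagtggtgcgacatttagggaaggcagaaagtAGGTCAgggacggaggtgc
Cry1: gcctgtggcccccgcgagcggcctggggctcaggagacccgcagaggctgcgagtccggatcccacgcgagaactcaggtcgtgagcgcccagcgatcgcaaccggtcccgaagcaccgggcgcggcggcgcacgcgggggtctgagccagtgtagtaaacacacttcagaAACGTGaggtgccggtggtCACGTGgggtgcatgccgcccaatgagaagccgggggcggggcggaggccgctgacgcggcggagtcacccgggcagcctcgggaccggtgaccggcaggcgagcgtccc
Per3: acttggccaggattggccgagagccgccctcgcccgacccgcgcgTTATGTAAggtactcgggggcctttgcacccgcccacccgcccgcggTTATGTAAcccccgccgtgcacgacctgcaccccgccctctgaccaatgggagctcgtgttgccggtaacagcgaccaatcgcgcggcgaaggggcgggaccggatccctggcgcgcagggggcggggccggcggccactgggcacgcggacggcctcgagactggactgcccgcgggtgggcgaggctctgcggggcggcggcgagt
Cry1 holds 1 E-box and 1 E′-box close together before its start, Nr1d2 and the printed Arntl window hold 1 half-site each, that of Arntl after the start, and the window of the other Arntl start holds none of the motifs, and Per3 holds 2 D-boxes. Among the 9 genes with a window, 2 had an E-box (Cry1 and Per1), 3 an E′-box (Cry1, Cry2 and Nr1d1), 1 a D-box (Per3) and 4 a half-site (Clock, Arntl, Per1 and Nr1d2). Of all 32851 windows in the table, 7.15% held the E-box, 4.68% the E′-box, 1.06% a D-box and 16.3% the half-site. These shares are per window, whereas the counts for the 9 genes are per gene, over 13 windows, so they cannot be compared directly. In Clock, Arntl and Per1, which have several windows, each motif found lay in 1 window only. The cAMP response element TGACGTCA (1.79% of all windows) and the interferon-stimulated response element (3.44%) were also searched, with 0 matches in the windows of these 9 genes. A match describes letters only, and the absence of one speaks only of this window.

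Clock and Arntl encode the activating pair of the loop. Clock stood at -0.42 and -0.52 on the poly I:C arrays, -0.03 and 0.11 on the PAM arrays and 0.07 and 0.03 on the control arrays. Both poly I:C arrays lay below all others, and the PAM and control arrays overlapped. Clock fell by 0.52 with poly I:C, which is 1.44-fold (SE 0.07, adjusted p = 0.000622, limma). With PAM it differed from control by -0.01 ± 0.07, with a 95% interval from -0.18 to 0.16, and poly I:C and PAM differed by -0.51 ± 0.07 (adjusted p = 0.000708, limma).

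Arntl stood at -0.34 and -0.30 with poly I:C, -0.01 and 0.01 with PAM and 0.20 and 0.36 in control cells. The 3 groups did not overlap, poly I:C being lowest and control highest. Arntl fell by 0.60 with poly I:C (1.52-fold, SE 0.07, adjusted p = 0.000198, limma) and by 0.28 with PAM (1.21-fold, SE 0.07, adjusted p = 0.02, limma). The decrease with PAM did not hold when 1 array was left out: it was -0.20 without control replicate 2, -0.27 without PAM replicate 1 and -0.29 without PAM replicate 2 (adjusted p = 0.101, 0.107 and 0.0875, limma). Poly I:C minus PAM was -0.32 ± 0.07 for Arntl (adjusted p = 0.00817), a call that ended without poly I:C replicate 1 (-0.30, adjusted p = 0.0609) or PAM replicate 2 (-0.32, adjusted p = 0.0544; limma throughout).

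The Per genes encode repressors of the pair, and of the 3 only Per2 passed against control, with PAM. Per2 stood at -0.03 and 0.03 with poly I:C, 0.39 and 0.59 with PAM and -0.08 and -0.10 in control cells. Only its PAM arrays stood apart by more than the gap within a group. Per2 rose by 0.59 ± 0.08 with PAM (1.5-fold, adjusted p = 0.000528, limma), whereas with poly I:C it differed by 0.09 ± 0.08 (95% interval from -0.09 to 0.27) and did not pass. The difference between the ligands passed too, at -0.49 ± 0.08 for poly I:C minus PAM (adjusted p = 0.00124, limma).

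Per1, which in many cells is also an acute target of hormone and cAMP signals, stood at 0.02 and 0.04 with poly I:C, -0.23 and -0.10 with PAM and 0.05 and -0.02 in control cells. The PAM arrays were the lowest, but the difference from control, -0.18 ± 0.07, did not pass (adjusted p = 0.113, limma). Its difference with poly I:C was 0.02, with a 95% interval from -0.15 to 0.18. Per3 stood at 0.08 and -0.12 with poly I:C, 0.09 and -0.11 with PAM and -0.08 and 0.14 in control cells. All 3 groups of Per3 overlapped. Its differences from control were -0.05 ± 0.11 with poly I:C and -0.04 ± 0.11 with PAM, with 95% intervals from -0.29 to 0.19 and from -0.28 to 0.20.

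Cry1 and Cry2 encode the cryptochromes, the PER partners that carry most of the repression. Cry1 stood at -0.01 and 0.01 with poly I:C, 0.30 and 0.41 with PAM and -0.29 and -0.17 in control cells. The groups did not overlap, PAM being highest and control lowest. Cry1 rose by 0.58 ± 0.07 with PAM (1.5-fold, adjusted p = 0.000328, limma) and by 0.23 ± 0.07 with poly I:C (1.17-fold, adjusted p = 0.0433, limma). The increase with poly I:C was close to the threshold. It ended without control replicate 1 (0.17, adjusted p = 0.163), poly I:C replicate 1 (0.24, adjusted p = 0.135), poly I:C replicate 2 (0.22, adjusted p = 0.169) or either PAM array (0.23, adjusted p = 0.0592; limma throughout). Between the ligands Cry1 differed by -0.36 ± 0.07 (adjusted p = 0.00523), and by -0.30 without PAM replicate 2 (adjusted p = 0.0547, limma).

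Cry2 showed the other order. It stood at 0.18 and 0.18 with poly I:C, -0.15 and 0.15 with PAM and -0.24 and -0.28 in control cells, so that the PAM arrays were far apart and all groups were still separate. Cry2 rose by 0.44 ± 0.09 with poly I:C (1.36-fold, adjusted p = 0.00606, limma). With PAM the difference was 0.26 ± 0.09 (adjusted p = 0.0793), and 0.41 without PAM replicate 1 (adjusted p = 0.0122, limma). The ligands differed by 0.18 ± 0.09 (95% interval from -0.03 to 0.39, adjusted p = 0.219), and by 0.33 without PAM replicate 2 (adjusted p = 0.0279, limma).

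**Figure D2:**
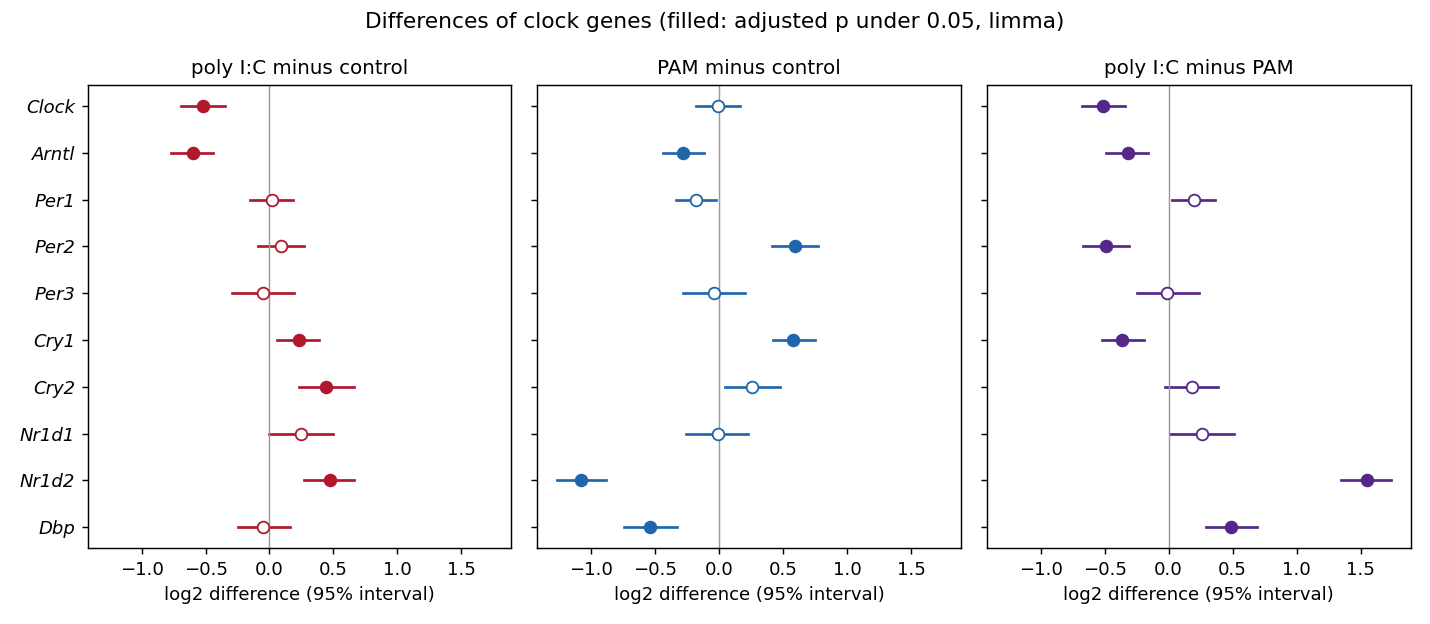
Log2 differences of the 10 clock genes for poly I:C minus control, PAM minus control and poly I:C minus PAM, with 95% intervals from limma. Filled points passed an adjusted p under 0.05. Nr1d2 lies at 0.47, -1.08 and 1.55 in the 3 panels, and Clock at -0.52, -0.01 and -0.51.

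Nr1d2, which encodes REV-ERB beta, was the 1 clock gene that passed in opposite directions with the 2 ligands. How many of all genes did so was not counted. Nr1d2 stood at 0.52 and 0.42 with poly I:C, -1.15 and -1.00 with PAM and -0.09 and 0.09 in control cells. Every group was separate, poly I:C above control and PAM below it. Nr1d2 fell by 1.08 with PAM (2.11-fold, SE 0.09, adjusted p = 1.71e-05, limma), and 3.68% of all genes changed more, in either direction. It rose by 0.47 ± 0.09 with poly I:C (1.38-fold, adjusted p = 0.00265, limma). Poly I:C and PAM differed by 1.55 ± 0.09, or 2.92-fold (adjusted p = 1.27e-06, limma), a difference exceeded by 2.44% of all genes. These 3 calls held in each of the 6 fits without 1 array. Against a minimum change of 1.2-fold the increase with poly I:C no longer passed (adjusted p = 0.128, limma's treat), while the decrease with PAM and the difference between the ligands did.

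Nr1d1 encodes the related REV-ERB alpha and did not pass in any comparison. Its values were 0.03 and 0.27 with poly I:C, -0.22 and 0.00 with PAM and -0.19 and 0.00 in control cells, so the arrays within a group differed by about as much as the groups. The difference from control was 0.25 ± 0.11 with poly I:C (adjusted p = 0.134, limma) and -0.01 ± 0.11 with PAM (95% interval from -0.26 to 0.23). Dbp, the D-box activator and a direct CLOCK target, stood at 0.13 and 0.00 with poly I:C, -0.47 and -0.38 with PAM and 0.00 and 0.22 in control cells. Its PAM arrays were the lowest, and the poly I:C and control arrays overlapped. Dbp fell by 0.54 with PAM (1.45-fold, SE 0.09, adjusted p = 0.00195, limma) and differed by -0.05 ± 0.09 with poly I:C (95% interval from -0.25 to 0.16). Poly I:C minus PAM was 0.49 ± 0.09 (adjusted p = 0.00273, limma).

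The genes nearest to Nr1d2 over the 6 arrays, by Euclidean distance between log2 values set to each gene's control mean, were Tut4 (0.21), which encodes an RNA uridylyltransferase, the zinc exporter gene Slc30a1 (0.23) and Tspan13 (0.23), a tetraspanin gene. The median distance over all genes was 1.70. Relative to their own medians, Tut4 stood at 0.49 and 0.56 with poly I:C, -1.18 and -0.86 with PAM and -0.07 and 0.07 in control cells. Slc30a1 stood at 0.56 and 0.46 with poly I:C, -0.99 and -0.97 with PAM and 0.01 and -0.01 in control cells. No other clock gene changed at least 2-fold, so none was given neighbours.

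**Figure D3:**
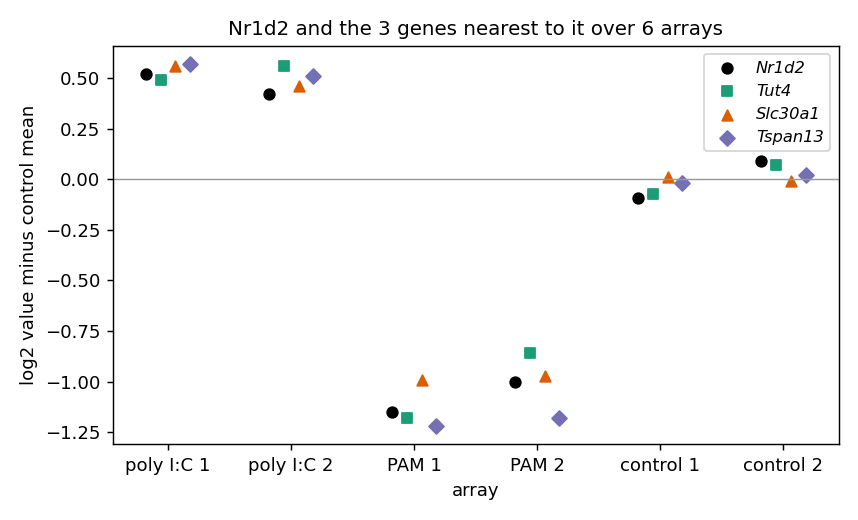
Log2 values relative to the control mean of Nr1d2, Tut4, Slc30a1 and Tspan13 on each of the 6 arrays. On all 4 genes the poly I:C arrays lie above and the PAM arrays below the control arrays.

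Other genes of the clock machinery were counted by role. Of 31 measured, 4 rose and 8 fell with poly I:C, beside all-gene shares of 12.1% higher and 18.2% lower. With PAM 3 rose and 11 fell, beside shares of 11% and 14%. Many of these calls ended against a minimum change of 1.2-fold (limma's treat). With poly I:C they were those of Rora, Ciart, Nfil3, Gsk3b, Csnk1e, Huwe1, Csnk2a1 and Hdac3. With PAM they were those of Rora, Sirt1, Csnk1e, Csnk1d, Gsk3b, Fbxw7, Tbl1x, Sfpq and Ddx5. Among paralogs of the activating pair and the ROR activators, which compete with REV-ERB on Arntl, 1 of 3 measured genes passed. This was Rora, with -0.40 ± 0.07 for poly I:C and -0.45 ± 0.07 for PAM (adjusted p = 0.00178 and 0.00119, limma). Rora stood at 0.02 and -0.04 with poly I:C, -0.08 and -0.02 with PAM and 0.35 and 0.44 in control cells, both ligands thus below control.

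Of 4 further E-box repressors and PER partners, 2 rose with poly I:C (12.1% of all genes) and 1 fell with PAM (14%). Timeless, a PER-associated gene that also serves DNA replication, stood at 1.08 and 1.26 with poly I:C, -0.21 and -0.21 with PAM and 0.12 and -0.12 in control cells. It rose by 1.17 ± 0.09 with poly I:C (adjusted p = 1.45e-05, limma), and its difference with PAM was -0.21 ± 0.09 (adjusted p = 0.156, limma). Ciart, a repressor of the CLOCK complex, rose by 0.43 ± 0.11 with poly I:C (adjusted p = 0.016), but by 0.24 without poly I:C replicate 2 (adjusted p = 0.0798, limma). Bhlhe40 (DEC1), which competes for E-boxes, stood at 0.08 and -0.02 with poly I:C, -0.69 and -0.71 with PAM and 0.02 and 0.29 in control cells, and fell by 0.86 with PAM (SE 0.09, adjusted p = 0.000129, limma). Of 3 further D-box factors 1 passed, higher with both poly I:C (12.1% of all genes) and PAM (11%). Nfil3, the D-box repressor that opposes DBP, rose by 0.54 ± 0.07 with PAM (adjusted p = 0.000321) and by 0.29 ± 0.07 with poly I:C (adjusted p = 0.00914; 0.24 and adjusted p = 0.0789 without poly I:C replicate 2, limma). The other two, Tef and Hlf, lay between -0.09 and 0.11 with either ligand.

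Enzymes that modify or degrade clock proteins and corepressors of REV-ERB and PER made up most of the 31 genes. Of 14 such enzymes 1 rose and 4 fell with poly I:C, beside 12.1% and 18.2% of all genes. With PAM 2 rose and 5 fell, beside 11% and 14%. Csnk1e, a kinase that marks PER for degradation, fell with both (-0.44 with poly I:C and -0.39 with PAM). The kinase gene Gsk3b also fell with both (-0.47 with poly I:C and -0.28 with PAM), but its call with PAM (adjusted p = 0.0336) ended in each fit without 1 array except that without control replicate 1. It was -0.18 without control replicate 2 (adjusted p = 0.164), -0.25 without PAM replicate 1 (0.178), -0.31 without PAM replicate 2 (0.0902) and -0.28 without either poly I:C array (0.0601, limma). With poly I:C the ligase gene Huwe1 stood at -0.44 and Csnk2a1 at -0.28 (adjusted p = 0.0775 without poly I:C replicate 2, limma). With PAM the deacetylase gene Sirt1 stood at -0.49, and Csnk1d and Fbxw7 at -0.29 each. Without control replicate 2 these last calls ended (adjusted p = 0.0546 and 0.055), as they did without PAM replicate 1 (0.104 and 0.0702), and that of Fbxw7 also without PAM replicate 2 (0.07, limma). Of 7 corepressor genes 3 fell with poly I:C (18.2% of all genes) and 4 with PAM (14%), and none rose by this test. Tbl1xr1, a subunit of the NCOR complex, fell by 0.75 with poly I:C and by 0.48 with PAM, and Sfpq fell by 0.61 with poly I:C and by 0.34 with PAM. Hdac3, the deacetylase of the complex, stood at -0.36 with poly I:C, and Tbl1x at -0.43 and Ddx5 at -0.27 with PAM (the last with adjusted p = 0.1 without PAM replicate 1, limma).

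**Figure D4:**
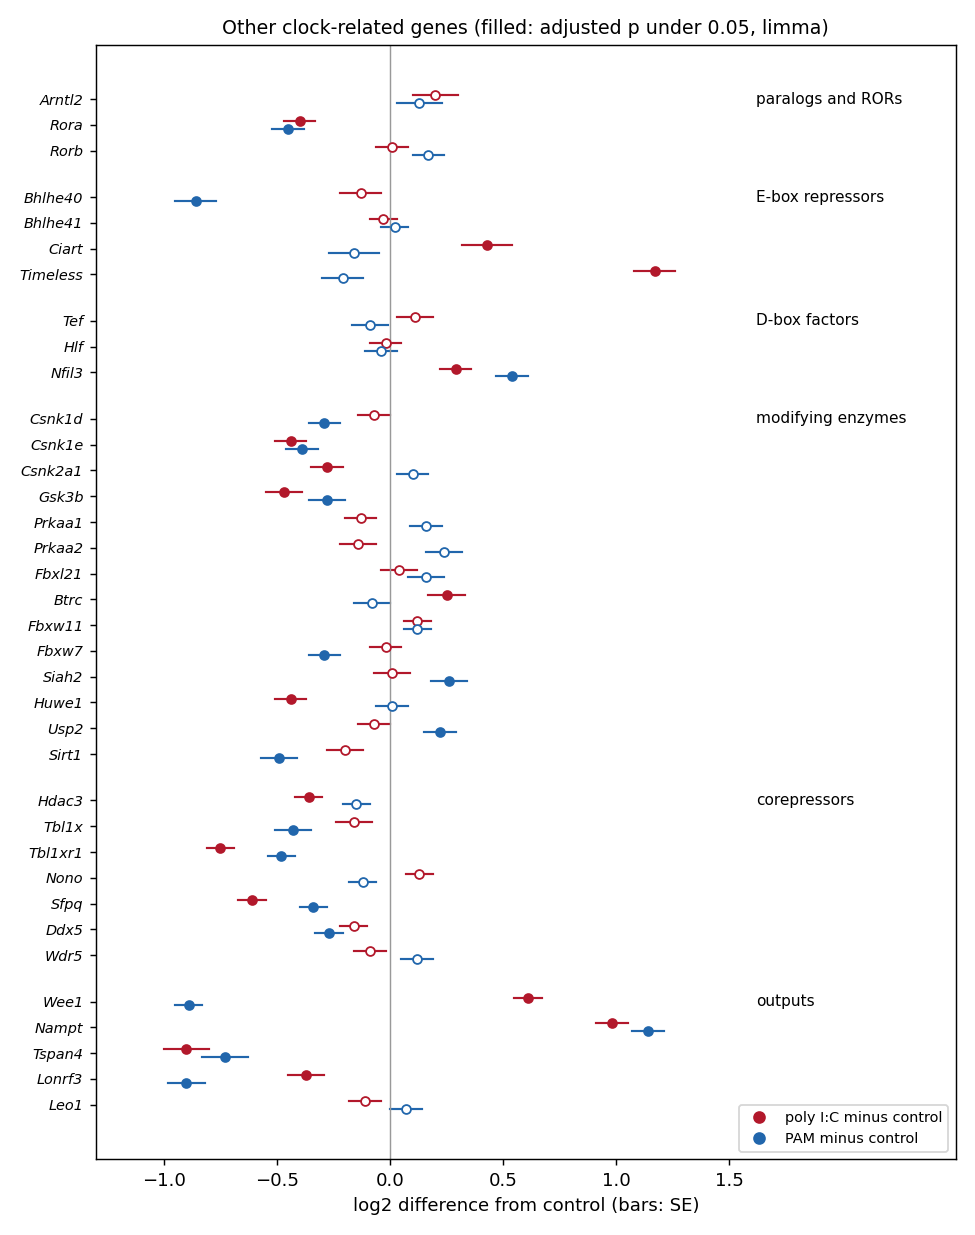
Log2 differences from control with SE bars for 36 further clock-related genes, grouped by role, with poly I:C and PAM in separate colours and filled points at an adjusted p under 0.05 (limma). Timeless (1.17 with poly I:C, -0.21 with PAM) and Wee1 (0.61 with poly I:C, -0.89 with PAM) differ most between poly I:C and PAM.

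Genes known as clock outputs in many tissues moved both ways. Of 5 measured, 2 rose and 2 fell with poly I:C (12.1% and 18.2% of all genes), and 1 rose and 3 fell with PAM (11% and 14%). Wee1, a cell cycle kinase gene with E-boxes known from mouse liver, stood at 0.64 and 0.59 with poly I:C, -0.90 and -0.88 with PAM and -0.03 and 0.03 in control cells. As for Nr1d2, its poly I:C arrays lay above and its PAM arrays below control (0.61 ± 0.06 and -0.89 ± 0.06, adjusted p = 8.49e-05 and 8.98e-06, limma). Nampt, the enzyme that renews NAD, rose by 0.98 with poly I:C and 1.14 with PAM. Tspan4 fell with both (-0.90 with poly I:C and -0.73 with PAM). Lonrf3 stood at -0.37 with poly I:C (adjusted p = 0.0601 without poly I:C replicate 2) and fell by 0.90 with PAM (adjusted p = 3.15e-05, limma).

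Genes that REV-ERB proteins have been reported to repress in mouse macrophages were counted too. They are inflammatory genes with many other inputs. With PAM all 6 measured were higher, where 11% of all genes were, with log2 differences of 6.97 for Il1b, 4.43 for Il6, 3.34 for Mmp9 and 2.98 for Nlrp3. With poly I:C 4 were higher and 1 was lower (12.1% and 18.2% of all genes), with Ccl2, a monocyte chemokine gene, at 2.37, Nlrp3 at 0.52, Mmp9 at 0.49 and Il1b at 0.32. Without poly I:C replicate 2 the calls of Mmp9 (0.42, adjusted p = 0.0793) and Il1b (0.25, adjusted p = 0.0915, limma) ended. The member that fell was Cx3cr1, the fractalkine receptor gene, at -0.25 ± 0.07 with poly I:C (adjusted p = 0.0305) and 0.57 ± 0.07 with PAM (adjusted p = 0.000393, limma), and was named after its values were seen. Its call with poly I:C ended without control replicate 1 (-0.19, adjusted p = 0.117), poly I:C replicate 1 (-0.28, adjusted p = 0.0812) or poly I:C replicate 2 (-0.22, adjusted p = 0.163, limma).

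Per genes also answer to cAMP and glucocorticoid signals, so genes of those responses were counted. Of 9 immediate early genes of the CREB type 1 rose and 2 fell with poly I:C, near the all-gene shares of 12.1% and 18.2%, and 1 rose and 4 fell with PAM, beside 11% and 14%. Egr2 fell by 2.57 and 1.79 and Junb rose by 0.54 and 0.35 with poly I:C and PAM in turn (Junb with PAM at 0.26 and adjusted p = 0.0902 without PAM replicate 2, limma). Fos stood at -0.55 with poly I:C (adjusted p = 0.0623 without poly I:C replicate 2, limma) and -1.41 with PAM, and Sik1 fell by 1.10 with PAM. Of 8 glucocorticoid-responsive genes 2 rose and 3 fell with poly I:C, beside 12.1% and 18.2% of all genes. With PAM 3 rose and 4 fell, beside 11% and 14%. Tsc22d3 (GILZ), also rhythmic in many tissues, stood at 0.27 and 0.15 with poly I:C, -1.22 and -1.04 with PAM and -0.05 and 0.05 in control cells. It fell by 1.13 with PAM (SE 0.08, adjusted p = 1.04e-05, limma) and differed by 0.21 ± 0.08 with poly I:C (adjusted p = 0.0946, limma). Klf9 fell by 0.67 and 0.74 and Zbtb16 by 0.55 and 0.66 with poly I:C and PAM in turn, Sgk1 rose by 0.47 and 0.60, and Dusp1 rose by 1.21 with poly I:C and fell by 0.60 with PAM (adjusted p = 0.000216, limma).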

How the data were processed

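RNA was turned into biotin-labelled cRNA by the Affymetrix procedure, per the labels' protocols. The authors deposited log2 values for 28815 probes on 6 arrays; how they were summarized and normalized, and the log base, is not given in the sources used here; base 2 was assumed. The values are centred on the probe's median (largest remaining median 5e-07; array medians -0.0049 to 0.0072), so no filter on low values was applied in the main test. Array number limits the precision (median SE of a difference 0.07).

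Probes with 1 gene symbol (21780; 1605 had several and 5430 none) were averaged per gene, giving 19935 genes. One mean per group was fitted over all arrays with limma 3.58.1 in R 4.3.3 (eBayes without trend; degrees of freedom 3 residual, 5.68 prior), with Benjamini-Hochberg adjustment across the whole gene set and a threshold of 0.05. The script was tested on simulated data. A probe counted as at 8 or above where all its values were multiples of the single-precision step of that range, within 0.1 step. Figures and counts used Python 3.11.15.

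The clock genes and the lists of related genes were chosen with earlier results of these data known. From each list of related genes at most 4 passing genes per ligand are named, by size of change, and for a clock gene changed at least 2-fold the 3 nearest genes. Cell type markers were not named by this rule. Alternatives tried are listed in the closing section.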

Additional observations from a re-analysis of the deposited data

How the results depend on the processing

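Alternatives were arrays centred on their median, eBayes with trend or robust, the 4 arrays compared, a replicate block, each array left out, each probe on its own, probes at 8 or above on all arrays, and a minimum change of 1.2-fold. Where an array was left out, the lone array of its group was assumed to vary like the other groups. Leaving out an array of the group not compared only repeated the fit to the 4 arrays compared. Each clock gene had 1 probe, so the fit to each probe used the same clock gene values as the main fit. Such fits are included in the count that follows, which therefore does not consist of separate checks. Over 396 recomputed differences of the 10 clock genes, 358 kept their direction and their side of the threshold, 21 lost a call, 4 gained one and 13 changed sign. The clock genes that passed numbered 4 to 5 with poly I:C, 4 to 5 with PAM and 5 to 6 between poly I:C and PAM when 1 array was left out. A minimum change of 1.2-fold left 2 clock genes with poly I:C (Clock and Arntl), 3 with PAM (Per2, Cry1 and Nr1d2) and 2 between them (Clock and Nr1d2), and 2755, 2151 and 2664 of all genes. Outside the clock machinery it also ended the poly I:C calls of Lonrf3, Mmp9, Il1b, Cx3cr1, Fos and Zbtb16. The PAM call of Junb ended as well. With probes at 8 or above alone 2, 1 and 2 clock genes passed, since only Clock and Nr1d2 remained to be tested, and 3885 of all genes with poly I:C.

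Replicate numbers were not shown to pair the samples: across genes, the difference between replicates 1 and 2 correlated at -0.0101 between poly I:C and PAM, -0.0727 between poly I:C and control and 0.155 between PAM and control. With the replicate block 6, 5 and 7 clock genes passed. The 1 that came in was Nr1d1, at 0.25 with poly I:C (adjusted p = 0.0228, limma) and 0.26 between poly I:C and PAM (adjusted p = 0.0184, limma), and no other clock gene call changed under the block.

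The 13 sign changes were those of differences that did not pass before or after. With 1 array left out, the poly I:C difference of Per3 ranged from -0.16 to 0.06 and that of Dbp from -0.16 to 0.06, and that of Per1 was -0.02 without control replicate 2. The PAM difference ranged from -0.08 to 0.06 for Clock, from -0.15 to 0.07 for Per3 and from -0.13 to 0.10 for Nr1d1, and poly I:C minus PAM ranged from -0.11 to 0.09 for Per3. The cause was not tested. With eBayes with trend the call of Il1b with poly I:C ended (0.32, adjusted p = 0.236, limma). Signal over background is unknown for the 8 clock genes below 8 on at least 1 array.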

Other observations

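Nr1d1 differed between the arrays numbered 1 and 2 in the same sense in all 3 groups. The array numbered 2 was the higher one by 0.23 with poly I:C, 0.23 with PAM and 0.19 in control cells. For Arntl (0.04, 0.01 and 0.15) and Cry1 (0.01, 0.11 and 0.12) it was also the higher one in all 3 groups. The share of all genes with this trait was not counted.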
